A study of Mus musculus with 9 samples.

Results

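Small leucine-rich proteoglycans (SLRPs) are secreted matrix proteins built around a fold of leucine-rich repeats, and 9 of their genes (Dcn, Bgn, Aspn, Lum, Fmod, Prelp, Omd, Ogn, and Podn) were measured in lung fibroblasts of aged mice with and without bleomycin injury. The members were chosen by gene symbol with earlier results of these data known, as were the gene lists used below. Counts of called genes are therefore set beside the shares of all tested genes as a description only. Each symbol matched 1 row among the 43346 genes of the deposited table, and all 9 were among the 16877 genes with enough reads to be tested. The mice were male Col1a1-GFP transgenics on an FVB background, in which the Col1a1 promoter drives green fluorescent protein. Their age was given both as 72 weeks and as 18 months, which are not quite the same. Aged sham mice (4 libraries) received saline into the trachea, and aged bleo mice (5 libraries) received 1 dose of bleomycin, a drug that injures the lung and is widely used to produce lung fibrosis. On day 30, dissociated lungs were sorted for cells that were positive for GFP and negative for CD45, CD31, and EpCAM, the surface markers of hematopoietic, endothelial, and epithelial cells. Each library was made from polyadenylated RNA of the sorted cells. The gate thus selected cells with an active Col1a1 reporter in both groups. The libraries are numbered within each group by the labels. The p-values of the gene tests weigh the difference between the groups against the spread between libraries of the same group.

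SLRPs sit on the surface of collagen fibrils, where they set the spacing, diameter, and cross-linking of the fibrils and keep growth factors in the matrix. Most carry sulfated glycosaminoglycan chains, of chondroitin or dermatan sulfate in the class with Dcn and Bgn and of keratan sulfate in the class with Lum and Fmod. In the lung they are made mainly by fibroblasts, with decorin the classical example, and soluble forms can bind TGF-beta, Toll-like receptors, and receptor tyrosine kinases.

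The summed gene counts ranged from 49921946 to 62370512 per aged sham library and from 53833507 to 68260600 per aged bleo library. Levels are given as CPM, counts scaled to library size after TMM normalization, where genes are compared between libraries, and as FPKM, which is also scaled to gene length, where genes are compared with each other. The labelled cell type was checked with marker lists. The summed level of 7 fibroblast markers was 16400 to 21000 CPM in aged sham and 49800 to 69000 CPM in aged bleo, nearly all of it from Col1a1, Col1a2, and Col3a1, of which Col1a1 also drives the sorted reporter. Of the other 4, Pdgfrb rose (log2 fold change 0.66), Tcf21 fell (-1.10), and Pdgfra (-0.43) and Thy1 (-0.38) were not called. The sum ordered the injured libraries 5, 3, 4, 1, and 2 from high to low. The 7 endothelial markers summed to no more than 24.5 CPM and 8 epithelial markers to no more than 98.1 CPM in any library. Blood cell markers were not absent, with 89.5 to 327 CPM in aged sham and 91.0 to 509 CPM in aged bleo for 5 pan-leukocyte genes, highest in aged sham 4 and aged bleo 4. The 5 neutrophil markers summed to 923 and 819 CPM in these same libraries, against 150 to 415 CPM in the other aged sham and 69.9 to 121 CPM in the other aged bleo libraries. No list had a marker at 0 in every library. Within aged bleo, the libraries aged bleo 4 and aged bleo 5 also stood apart in adventitial fibroblast and macrophage markers. Their 6 adventitial fibroblast markers summed to 892 and 964 CPM, against 2283 to 2902 CPM in aged bleo 1 to 3, and their 7 macrophage markers to 1500 and 820 CPM, against 451 to 662 CPM.

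Bleomycin injury split the family. Fmod, which encodes fibromodulin, rose 13.7-fold and Bgn, which encodes biglycan, rose 1.60-fold. Dcn (decorin), Ogn (osteoglycin, also called mimecan), and Omd (osteomodulin, also called osteoadherin) fell 2.91-fold, 3.02-fold, and 4.36-fold. Aspn, Lum, Prelp, and Podn did not pass the test. Genes were called changed when the FDR (the Benjamini-Hochberg adjusted p-value over all tested genes, from edgeR's quasi-likelihood test) was under 0.10 and the fold change over 1.5. By this rule 2 of the 9 members were higher and 3 lower, where 23.8% of all tested genes were called, 12.3% higher and 11.5% lower. The same 5 members were those with an FDR under 0.10 at any fold, which 44.8% of all tested genes had. In these 5 members the libraries of both groups did not overlap, as in 32.2% of all tested genes (16.1% with every aged bleo library above every aged sham library and 16.1% below). The median log2 fold change was -0.37 for the 9 members and 0.006 for all tested genes. Cells of a given type that became fewer and cells that held less of a transcript cannot be told apart in these bulk libraries.

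The calls rested on no single mouse, since 2 members were higher and 3 lower when any library was left out, including aged bleo 4 or aged bleo 5. The library names carry an ending whose meaning is not stated, and all aged sham libraries share it with aged bleo 4 only. The other aged bleo libraries have endings that no aged sham library has. For them, injury and whatever the ending stands for cannot be told apart. Aged bleo 4 had the lowest level of every member among the injured libraries and the highest leukocyte and macrophage markers. Against aged sham, this library alone gave log2 fold changes of -2.50 for Dcn, -2.89 for Ogn, -3.40 for Omd, 3.52 for Fmod, and 0.39 for Bgn, which is under the fold change threshold. With 1 injured library the spread comes from aged sham only, so these values are a description and do not show that the calls hold.

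**Figure D1:**
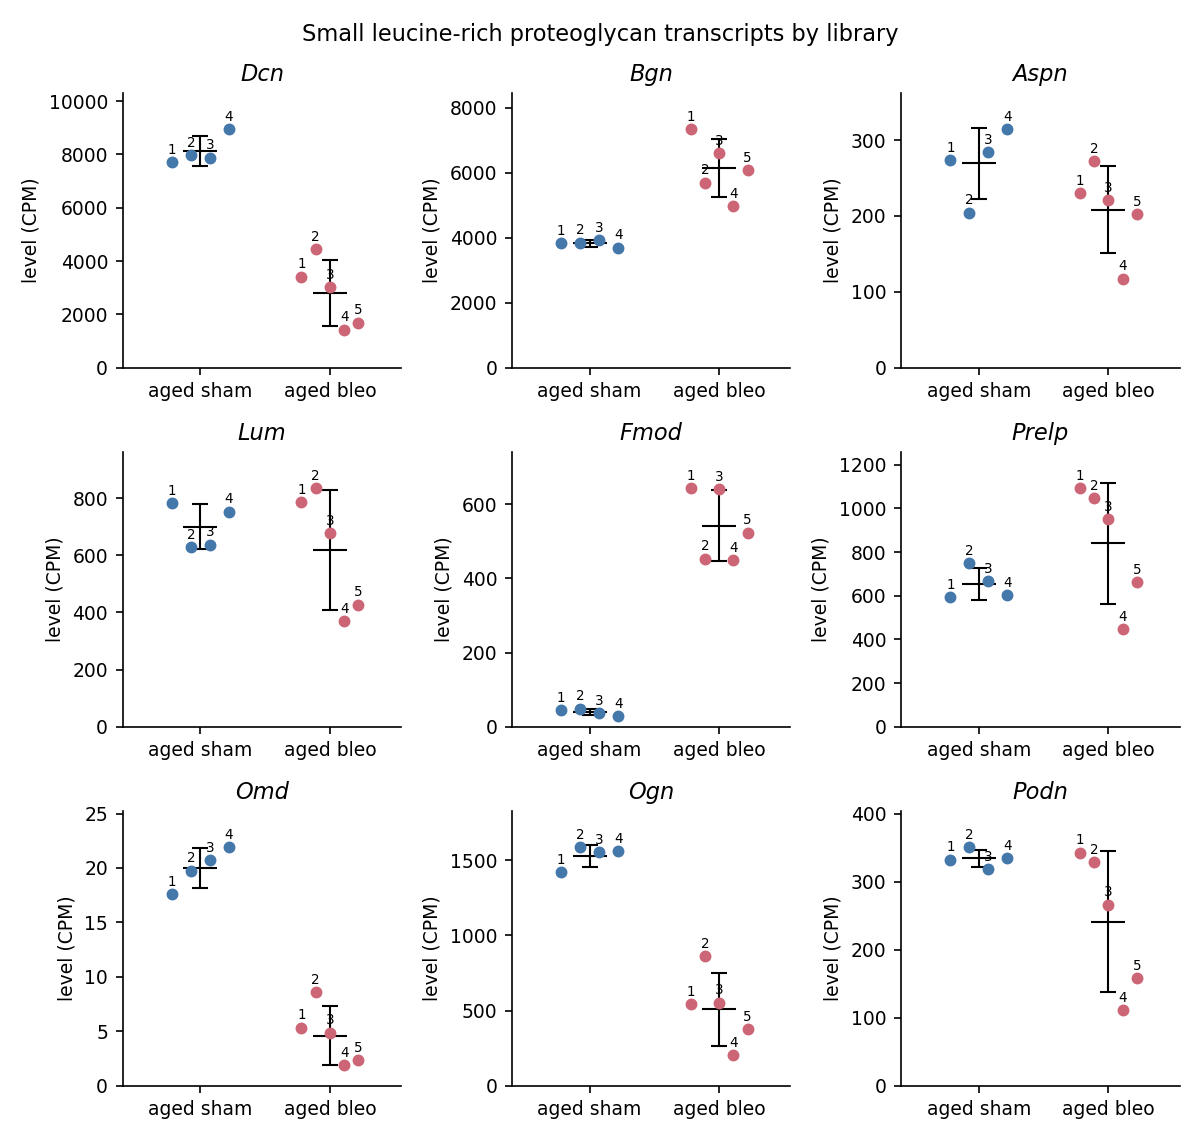
Level of each SLRP gene in CPM (vertical axis, from 0) in the 4 aged sham (blue) and 5 aged bleo (red) libraries, numbered by replicate, with the mean and SD as bars. The libraries of both groups lie apart for Fmod and Bgn, which were higher in aged bleo, and for Dcn, Ogn, and Omd, which were lower, and overlap for Aspn, Lum, Prelp, and Podn.

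The proximal promoters of 4 of the 5 changed members are shown, as the 250 bases before the RefSeq transcription start, so that the higher and the lower genes can be compared directly. Capitals mark matches on either strand to any of 5 short motifs, and overlapping matches were each counted. The motif spelled TATAAA is the TATA box of many basal promoters. The motif spelled GGGCGG is the GC box that SP1 factors recognize. The motif spelled TGANTCA is the site of the AP-1 factors. The motif spelled GGAAA is the core of NFAT sites, and the motif spelled CAGAC is the core of SMAD sites.
Fmod (GRCm38.p6, chr1:134037004-134037253, plus strand): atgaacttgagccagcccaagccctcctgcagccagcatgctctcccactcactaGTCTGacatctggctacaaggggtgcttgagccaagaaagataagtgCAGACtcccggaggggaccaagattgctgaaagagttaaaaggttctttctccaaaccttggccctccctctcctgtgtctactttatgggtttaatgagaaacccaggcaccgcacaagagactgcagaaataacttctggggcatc
Bgn (GRCm38.p6, chrX:73483351-73483600, plus strand): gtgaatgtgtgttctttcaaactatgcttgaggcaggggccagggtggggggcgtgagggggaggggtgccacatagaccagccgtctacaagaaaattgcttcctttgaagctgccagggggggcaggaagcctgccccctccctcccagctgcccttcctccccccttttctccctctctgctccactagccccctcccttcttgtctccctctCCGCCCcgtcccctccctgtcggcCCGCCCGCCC
Ogn (GRCm38.p6, chr13:49607765-49608014, plus strand): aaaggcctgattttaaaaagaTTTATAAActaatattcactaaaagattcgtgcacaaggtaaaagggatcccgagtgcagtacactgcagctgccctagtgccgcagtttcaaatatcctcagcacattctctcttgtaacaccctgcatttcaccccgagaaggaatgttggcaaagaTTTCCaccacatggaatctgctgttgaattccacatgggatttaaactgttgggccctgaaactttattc
Omd (GRCm38.p6, chr13:49582212-49582461, plus strand): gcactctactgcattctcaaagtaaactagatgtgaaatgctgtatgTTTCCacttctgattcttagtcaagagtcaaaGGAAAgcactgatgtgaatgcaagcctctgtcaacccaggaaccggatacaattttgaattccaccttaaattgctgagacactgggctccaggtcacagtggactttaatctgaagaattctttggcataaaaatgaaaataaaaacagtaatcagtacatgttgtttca
The 2 higher genes held different letters. Fmod had 2 SMAD cores, at 195 to 191 and 148 to 144 bases before the start, and Bgn had 3 GC boxes, of which 2 overlapped in the last 10 bases. Of the lower genes, Ogn had 2 overlapping TATA box matches, which lay 229 to 222 bases before the start, and 1 NFAT core, and Omd had 2 NFAT cores. Among all 32851 RefSeq promoter windows of this length, 42.2% held a SMAD core, 32.7% a GC box, 12.4% a TATA box, and 55.6% an NFAT core. These are shares of windows with 1 match or more, and how often windows held 2 or 3 matches was not counted. An AP-1 site, which 6.75% of all windows held, matched in none of the 8 windows of the 7 members found in the RefSeq table. The GC content of the window was 64.4% for Bgn and 51.2% for Fmod, and 42.0% for Ogn and 38.4% for Omd, where the median of all windows was 52.4%. The matches describe letters only and do not show binding.

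Decorin and biglycan are the closest relatives in the family, and their transcripts moved in opposite directions. Dcn (ENSMUSG00000019929, GRCm38, chromosome 10, 97479500 to 97518162) had 7702, 7967, 7876, and 8943 CPM in aged sham 1 to 4 and 3409, 4437, 3022, 1421, and 1686 CPM in aged bleo 1 to 5. Every injured library was thus below every uninjured one, and aged bleo 4 and 5 were lowest. The mean fell from 8122 ± 558 CPM (SD, n = 4) to 2795 ± 1249 CPM (SD, n = 5), with a log2 fold change of -1.54 (SE 0.32, edgeR FDR 0.00667). Decorin carries 1 glycosaminoglycan chain, binds collagen I, and sequesters TGF-beta.

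Bgn (ENSMUSG00000031375, chromosome X, 73483602 to 73495933) had 3837, 3852, 3937, and 3694 CPM in aged sham 1 to 4, the tightest of all members with a coefficient of variation of 2.63%. In aged bleo 1 to 5 it had 7343, 5694, 6613, 4979, and 6074 CPM. The groups did not overlap, and the log2 fold change was 0.68 (SE 0.14, edgeR FDR 0.00719), just over the fold change threshold. Biglycan is a matrix component that, once released, is recognized by the Toll-like receptors TLR2 and TLR4. Aspn (ENSMUSG00000021388, chromosome 13, 49544443 to 49567557), which encodes asporin, the member of this class that lacks a glycosaminoglycan chain, had 204 to 314 CPM in aged sham and 117 to 272 CPM in aged bleo. These ranges overlapped, and its log2 fold change of -0.37 did not pass the test (SE 0.22, edgeR FDR 0.222).

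Fmod had the largest change of the 9 genes, from a low level before injury. Fmod (ENSMUSG00000041559, chromosome 1, 134037254 to 134048277) had 44.6, 48.2, 37.0, and 28.0 CPM in aged sham 1 to 4. It had 643, 453, 640, 449, and 523 CPM in aged bleo 1 to 5, so the lowest injured library was several times above the highest uninjured one. The log2 fold change was 3.78 (SE 0.21, edgeR FDR 1.23e-05), and of all tested genes 1.04% were called with a 10-fold or larger rise. Fibromodulin binds fibrillar collagen at a site it shares with lumican and directs lysyl oxidase to cross-linking sites. Its mean FPKM went from 5.02 ± 1.20 (SD, n = 4) to 70.3 ± 11.8 (SD, n = 5), which moved it from position 4366 to position 216 among all genes ordered by mean FPKM.

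Lum, which encodes lumican, the nearest relative of fibromodulin, did not show this rise. Lum (ENSMUSG00000036446, chromosome 10, 97565501 to 97572703) had 783, 629, 637, and 754 CPM in aged sham 1 to 4 and 786, 835, 679, 369, and 427 CPM in aged bleo 1 to 5. Aged bleo 4 and 5 were below all aged sham libraries and aged bleo 1 and 2 above them. The log2 fold change was -0.18 (SE 0.24, edgeR FDR 0.601). Prelp (ENSMUSG00000041577, chromosome 1, 133910304 to 133921414) encodes a proline- and arginine-rich protein that connects collagen to heparan sulfate in basement membranes. It had 593 to 749 CPM in aged sham and 1092, 1047, 950.4, 447, and 662 CPM in aged bleo 1 to 5, with a log2 fold change of 0.36 that did not pass the test (SE 0.25, edgeR FDR 0.279). Its direction turned to -0.53 where only aged bleo 4 was compared with aged sham. The gene Gm15851 lies antisense to Prelp and shares exon positions with it, and the library kit does not mark strand, so reads of both cannot be told apart.

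Omd had the largest fall of the 9 genes, at a low level. Omd (ENSMUSG00000048368, chromosome 13, 49582766 to 49592609) had 17.6, 19.8, 20.7, and 21.9 CPM in aged sham 1 to 4 and 5.32, 8.56, 4.88, 1.87, and 2.34 CPM in aged bleo 1 to 5. The groups did not overlap, and the log2 fold change was -2.12 (SE 0.39, edgeR FDR 0.00418). At least 128 reads were counted for it in each library. Osteomodulin is best known from bone, where it binds mineral and cells.

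Ogn fell with Dcn and Omd. Ogn (ENSMUSG00000021390, chromosome 13, 49608071 to 49624500) had 1422, 1587, 1556, and 1560.0 CPM in aged sham 1 to 4 and 544, 860.1, 553, 204, and 375 CPM in aged bleo 1 to 5. All injured libraries were below all uninjured ones, with a log2 fold change of -1.59 (SE 0.33, edgeR FDR 0.00715). Osteoglycin forms a class of its own with epiphycan and opticin and takes part in collagen fibril assembly. Podn (ENSMUSG00000028600, chromosome 4, 108014791 to 108096445), which encodes podocan, a more distant member that binds collagen I, had 319 to 351 CPM in aged sham and 343, 329, 266, 111, and 158 CPM in aged bleo 1 to 5. Aged bleo 1 and 2 lay within the aged sham range and aged bleo 4 and 5 far under it, and the log2 fold change of -0.47 did not pass the test (SE 0.30, edgeR FDR 0.254).

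**Figure D2:**
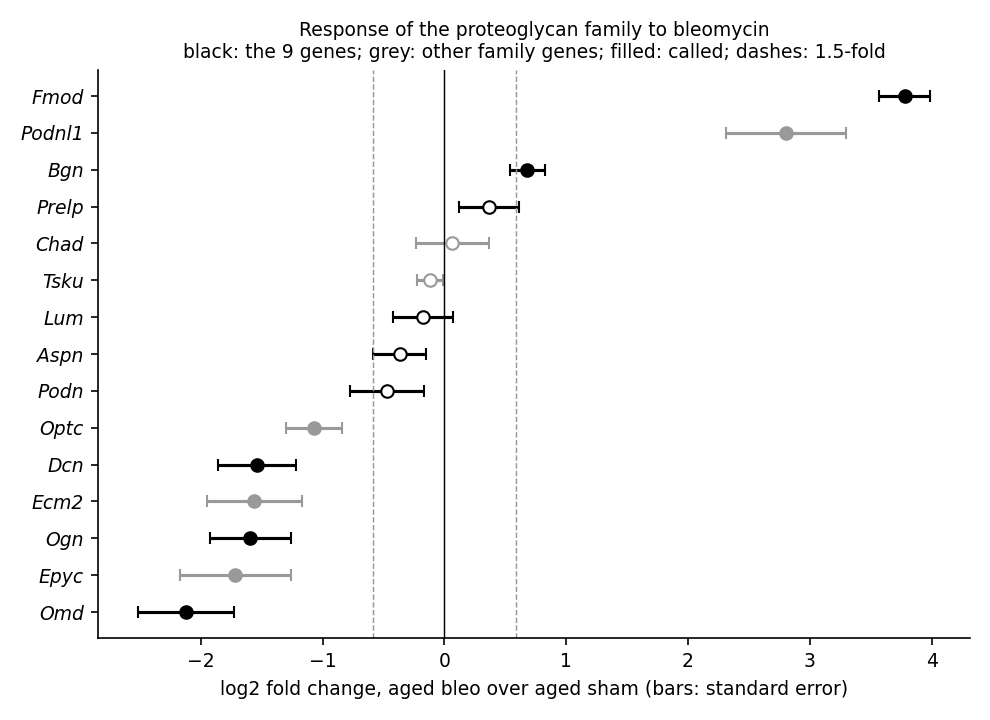
Log2 fold change of aged bleo over aged sham (horizontal axis) with its standard error for the 9 members (black) and 6 other tested genes of the family (grey), ordered by size, with filled points for called genes and dashed lines at a 1.5-fold change. Fmod (3.78) and Podnl1 (2.80) lie at the top, and Omd (-2.12), Epyc (-1.72), Ogn (-1.59), Ecm2 (-1.56), and Dcn (-1.54) at the bottom.

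The make-up of the SLRP transcripts shifted from one dominated by decorin to one shared by decorin and biglycan. Measured per length, Dcn held 66.4% ± 1.33 (SD, n = 4) of the summed FPKM of the 9 genes in aged sham and 38.1% ± 6.83 (SD, n = 5) in aged bleo. The share of Bgn went from 10.7% ± 0.734 to 31.3% ± 7.35, and that of Fmod from 0.205% ± 0.0530 to 5.12% ± 1.32. Shares of Ogn went the other way, from 10.3% ± 0.512 to 5.64% ± 1.37. Lum and Prelp took larger shares of a smaller whole, with 5.76% and 3.09% in aged sham and 8.69% and 6.78% in aged bleo, although their own levels did not pass the test. The summed FPKM of the family was 2362 to 2573 in aged sham and 939.8 to 1858 in aged bleo, without overlap. As a share of all counts, which is not scaled to length, the family made up 1.54% ± 0.0519 in aged sham and 1.18% ± 0.231 in aged bleo. The shares sum to a fixed whole, so a rise of 1 gene lowers the others, and they are given without a test.

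**Figure D3:**
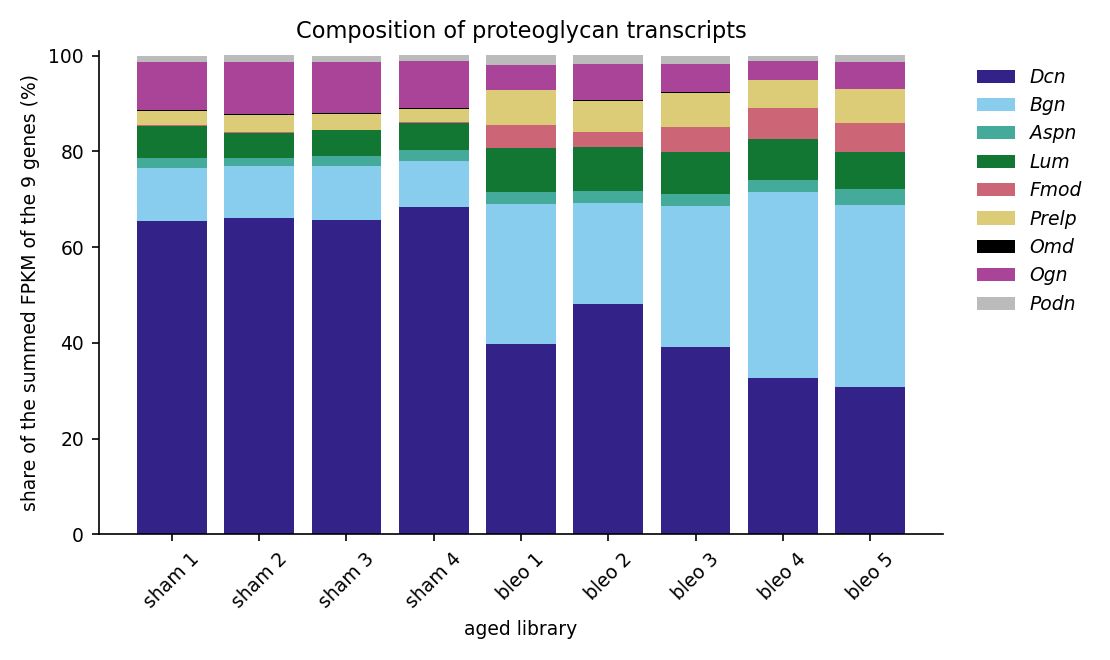
Share of each SLRP gene in the summed FPKM of the 9 genes (vertical axis, percent) in each library. Dcn fills 65.5% to 68.4% of the aged sham bars and 30.8% to 48.1% of the aged bleo bars, and Fmod fills 0.135% to 0.252% and 3.10% to 6.48%.

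In the order of FPKM levels in aged sham, Dcn (1633 ± 90.4, SD, n = 4) came first, at position 6 among all genes. Bgn (263 ± 10.9) and Ogn (253 ± 13.7) followed with overlapping ranges, then Lum (141 ± 14.3), Prelp (75.8 ± 9.46), Aspn (48.0 ± 7.73), and Podn (32.8 ± 1.47), each apart from the next. Omd (5.39 ± 0.460) and Fmod (5.02 ± 1.20) were lowest and overlapped. After injury, more of the ranges overlapped, although within a library the order was often kept. Dcn (572 ± 246, SD, n = 5) and Bgn (432 ± 59.5) overlapped, with Dcn above Bgn in 3 of 5 libraries, at positions 18 and 24 among all genes. Lum, Prelp, Ogn, and Fmod, with means of 127, 99.3, 85.1, and 70.3 FPKM, had ranges that each overlapped the next. Within a library, Lum was above Prelp in 5 of 5, Prelp above Ogn in 4 of 5, and Ogn above Fmod in 3 of 5. The ranges of Aspn (38.0 ± 9.71) and Podn (24.1 ± 10.1) overlapped below them, with Aspn higher in 5 of 5 libraries, and Omd (1.26 ± 0.714) was far below, at position 10736.

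Ratios within a library do not depend on how libraries are scaled, so 4 ratios of FPKM values were compared between the groups. The ratio of Bgn to Dcn was 0.17, 0.165, 0.171, and 0.141 in aged sham 1 to 4 and 0.736, 0.439, 0.748, 1.2, and 1.23 in aged bleo 1 to 5. Biglycan transcripts thus exceeded decorin transcripts per length in aged bleo 4 and 5 and in no other library. The ratio was 5.04-fold higher after injury, a difference of 2.33 on the log2 scale. The ratio of Fmod to Lum, 2 relatives that share a collagen site, was 0.0233 to 0.0482 in aged sham and 0.514, 0.341, 0.592, 0.764, and 0.769 in aged bleo 1 to 5, which is 16.4-fold higher (log2 difference 4.04).

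Relative to collagen I, both decorin and biglycan transcripts were lower after injury. Col1a1, the main chain of the fibrils that these proteins coat and the gene whose promoter drives the sorted reporter, rose by 2.33 on the log2 scale (SE 0.23, edgeR FDR 0.000176). The ratio of Dcn to Col1a1 was 5.32, 6.25, 6.79, and 6.4 in aged sham 1 to 4 and 0.578, 1.03, 0.44, 0.182, and 0.205 in aged bleo 1 to 5, a 15.6-fold difference. For Bgn to Col1a1, the ratio was 0.904 to 1.16 in aged sham and 0.218 to 0.452 in aged bleo, 3.09-fold lower, although Bgn itself rose. Each of the 4 ratios separated all aged bleo from all aged sham libraries. In a two-sided exact permutation test of the group labels, p was 0.00794 for each ratio, also after Benjamini-Hochberg adjustment over the 4 ratios. No smaller p can come from 4 against 5 libraries. The test adds no independent evidence, since Dcn, Bgn, Fmod, and Col1a1 had each been seen to separate the groups and opposite shifts fix the separation of Bgn to Dcn and of Dcn to Col1a1.

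**Figure D4:**
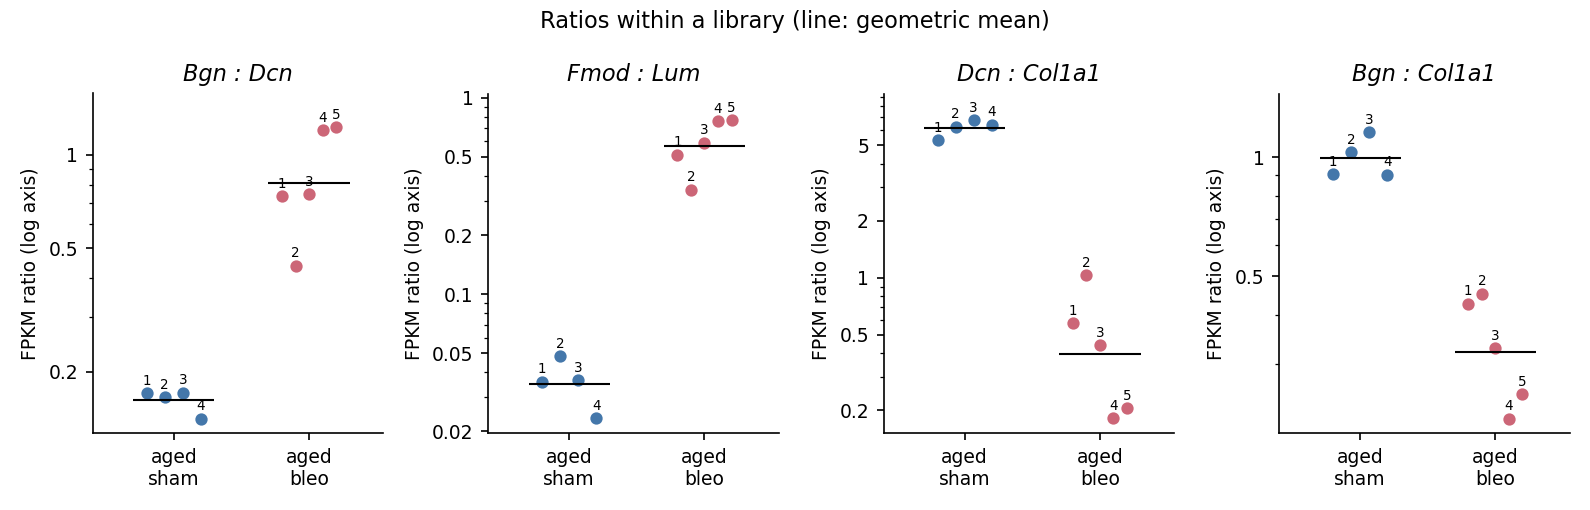
Ratio of FPKM values within each library (vertical log axis, a scale of its own in each panel) for 4 pairs of genes in aged sham (blue) and aged bleo (red), numbered by replicate, with the geometric mean as a line. Bgn to Dcn and Fmod to Lum are higher in all aged bleo libraries, and Dcn to Col1a1 and Bgn to Col1a1 are lower.

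Among the injured libraries, the spread was narrowest for the 2 higher members. The ratio of the highest to the lowest aged bleo library was 1.43 for Fmod and 1.47 for Bgn, 2.26 for Lum, 2.32 for Aspn, 2.44 for Prelp, 3.10 for Podn, 3.12 for Dcn, 4.21 for Ogn, and 4.58 for Omd. The coefficient of variation of Dcn was 6.87% in aged sham and 44.7% in aged bleo, and that of Ogn 4.86% and 48.0%, whereas that of Fmod was 22.8% and 17.7%. Aged bleo 4 had the lowest level of all 9 members. For 7 members (Dcn, Aspn, Lum, Prelp, Omd, Ogn, and Podn), aged bleo 4 and 5 were the lowest of the 5 injured libraries, and for Bgn and Fmod the order was aged bleo 1, 3, 5, 2, and 4.

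Summed markers of fibroblast subtypes were also lowest in aged bleo 4 and 5 among the injured libraries, and summed macrophage markers were highest there. All 6 adventitial fibroblast markers fell after bleomycin (Pi16, Dpp4, Cd34, Clec3b, Ly6a, and Ly6c1), with a summed level of 5560 to 6750 CPM in aged sham and 892 to 2900 CPM in aged bleo, and their sum ordered the injured libraries exactly as Dcn, Aspn, Lum, and Omd did. Of 6 alveolar fibroblast markers 3 fell and 1 rose. Their sum was 2330 to 3760 CPM in aged sham and 830 to 2410 CPM in aged bleo. It ordered the injured libraries as Ogn did. Such a match was not particular to fibroblast subtypes. The summed chondrocyte markers, 19.8 to 34.8 CPM in aged bleo, ordered the injured libraries as Prelp and Podn did. Of 7 macrophage markers 4 rose, with sums of 153 to 343 CPM in aged sham and 451 to 1500 CPM in aged bleo, highest in aged bleo 4 and 5. Of the 5 pan-leukocyte markers 1 rose. For comparison with these counts, 12.3% of all tested genes rose and 11.5% fell. No marker of these lists was at 0 in every library, and the part of these cell types in the SLRP values was not tested. Without aged bleo 4, the log2 fold changes were -1.38 for Dcn, -1.40 for Ogn, -1.93 for Omd, 0.74 for Bgn, and 3.83 for Fmod, and without aged bleo 5 they were -1.40, -1.50, -1.96, 0.69, and 3.79.

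**Figure D5:**
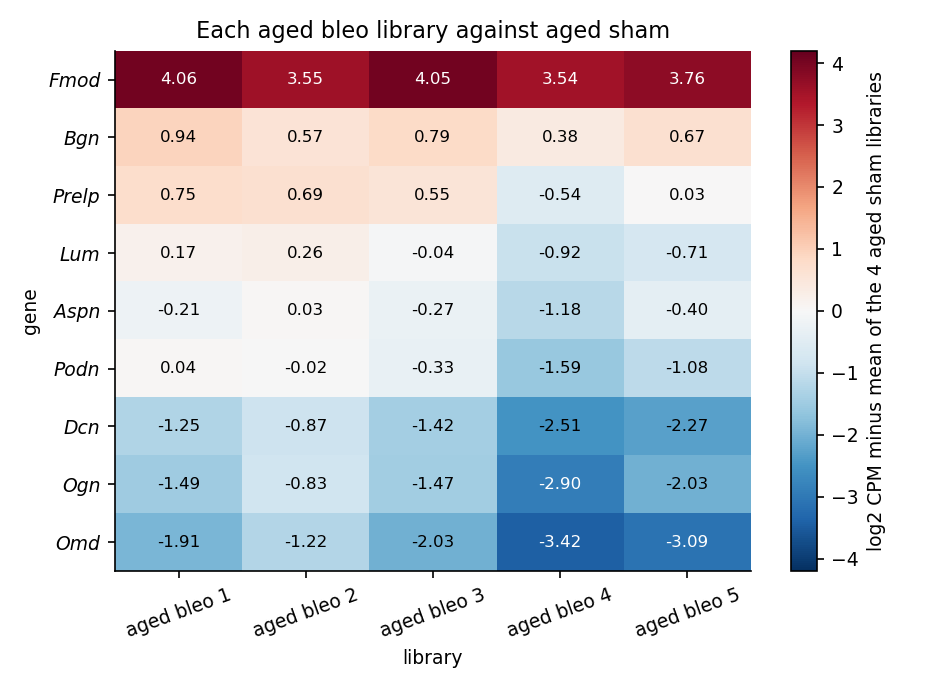
Difference between each aged bleo library and the mean of the 4 aged sham libraries in log2 CPM (color and printed value) for the 9 SLRP genes, ordered by their mean difference. Fmod is red in all 5 libraries (3.54 to 4.06) and Omd blue in all 5 (-3.42 to -1.22), while Prelp, Lum, Aspn, and Podn have both signs and aged bleo 4 is lowest in every row.

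Most SLRP genes lie in clusters, and neighbours within a cluster differed in their values. On chromosome 1, over 151079 bases, Optc, Prelp, and Fmod lie side by side, with log2 fold changes of -1.07, 0.36, and 3.78. On chromosome 10, Dcn and Lum (-1.54 and -0.18) are followed by Kera and Epyc, of which Epyc was at -1.72. On chromosome 13, Ecm2, Aspn, Omd, and Ogn (-1.56, -0.37, -2.12, and -1.59) lie over 119691 bases within the gene Cenpp, which runs on the opposite strand. The differences between neighbouring genes were not tested. The nearest tested genes outside these 3 clusters were not called. They were Atp2b4 (0.06) and Btg2 (-0.58, edgeR FDR 0.0123) on chromosome 1 and Tes3-ps (0.33) and Nol8 (0.08) on chromosome 13. On chromosome 10 they were Btg1 (0.15) and Atp2b1 (0.25), which lie 856687 and 1232698 bases away. Cenpp itself was scarce, with means of 0.957 CPM before and 2.14 CPM after injury, and was called (1.16, edgeR FDR 0.0685), but it shares exon positions with Aspn, so its reads are uncertain.

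Bgn and Podn stand alone. Both nearest tested genes of Bgn on chromosome X rose, Haus7 (log2 fold change 0.95, edgeR FDR 0.0105) and the scarce Dusp9 (3.30, edgeR FDR 0.00436). Dusp9 lies 143486 bases away. Around Podn on chromosome 4, Slc1a7 (-0.34) and Echdc2 (-0.19) were not called, and the overlapping Scp2 (0.55, edgeR FDR 0.00524) stayed under the fold change threshold.

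The other 8 genes of the family were far less abundant, except Ecm2 and Tsku, and 6 of them were tested. Of these, 1 rose and 3 fell (23.8% of all tested genes were called), with a median log2 fold change of -0.59 against 0.006 for all tested genes. Ecm2, which encodes an SLRP-related matrix protein and lies next to Aspn, fell from 343 ± 26.7 CPM (SD, n = 4) to 116 ± 66.7 CPM (SD, n = 5), with a log2 fold change of -1.56 (SE 0.39, edgeR FDR 0.0150). Epyc (epiphycan, known from cartilage) fell from 3.32 to 1.01 CPM (log2 fold change -1.72, edgeR FDR 0.0183) and Optc (opticin, known from the eye) from 4.83 to 2.30 CPM (-1.07, edgeR FDR 0.00812). Podnl1, the closest relative of podocan, rose instead. It had 0.65 to 0.872 CPM in aged sham and 4.28, 2.04, 3.16, 11.6, and 5.04 CPM in aged bleo 1 to 5, highest in aged bleo 4, where all 9 members were lowest (log2 fold change 2.80, SE 0.49, edgeR FDR 0.00319). Chad (chondroadherin; 0.06) and Tsku (tsukushi; -0.12) did not pass the test. Nyx (nyctalopin) was under the count minimum, with means of 0.249 CPM before and 0.506 CPM after injury. Kera (keratocan, of the cornea) was too, with 1 read in aged sham 1, no reads in the other 3 aged sham libraries, and 0.0744 to 0.766 CPM in aged bleo. A count of 0 allows up to 3 counts, here 0.0513 to 0.0605 CPM in aged sham 2 to 4.

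Among the enzymes that build the sugar chains of SLRPs, genes for chondroitin synthases and several sulfotransferases changed. The share called was near that of all tested genes (23.8%). Of 7 tested enzymes of the linker by which chains attach to the core protein, 1 was called, the xylose phosphatase gene Pxylp1 (log2 fold change 1.09, edgeR FDR 0.00733), and the median was 0.21. Of 17 tested enzymes that make or sulfate chondroitin and dermatan sulfate chains, 4 rose and 1 fell, with a median of 0.24. Chsy3, a chondroitin synthase gene, rose from 4.44 to 29.4 CPM (2.72, edgeR FDR 2.38e-05) and Chst11, a chondroitin sulfotransferase gene, from 29.4 to 91.2 CPM (1.63, edgeR FDR 0.000347). Chst7, another sulfotransferase gene, fell from 10.0 to 4.44 CPM (-1.17, edgeR FDR 0.000952). Of 6 tested enzymes of keratan sulfate, the chain of the class with Fmod and Lum, 2 rose and none fell, B3gnt7 (1.90, edgeR FDR 0.00230) and Chst2 (1.33, edgeR FDR 5.41e-05), with a median of 0.21. The median of all tested genes was 0.006.

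Proteases that cut SLRPs and the partners that SLRPs bind moved in both directions. Among all tested genes, 12.3% rose and 11.5% fell. Of 9 tested proteases, 3 rose and 1 fell (median log2 fold change 0.26). The largest rises were those of Mmp12 (6.61) and of the collagenase gene Mmp13 (6.59), both below 1 CPM in aged sham. Mmp12 was highest in aged bleo 4 (73.9 CPM), the library with the highest macrophage markers. Which cells held its transcript was not tested. The fall was that of the aggrecanase gene Adamts5 (-1.23, edgeR FDR 0.00646). Bmp1, whose product trims the precursor of biglycan, had a log2 fold change of 0.18 and did not pass the test (edgeR FDR 0.168). Of 17 tested receptors and ligands, 4 rose and 4 fell, with a median of -0.15, where 23.8% of all tested genes were called. Wisp1, whose secreted product binds decorin and biglycan (3.08, edgeR FDR 0.000271), and Tgfb1, a growth factor gene (2.04, edgeR FDR 9.79e-05), rose most, and Met (-1.73, edgeR FDR 0.00518) and Erbb4 (-1.18, edgeR FDR 0.0769), which encode receptor tyrosine kinases that decorin is known to act on, fell most. Tlr4, the receptor gene named above for biglycan, fell (-0.88, edgeR FDR 0.00723), and Tlr2 did not pass the test (0.09). Fibrillar collagens, the partners of nearly all SLRPs, rose in 9 of 10 tested genes with a median of 1.92. Col11a1 rose most (8.05), followed by Col24a1 (2.75), both scarce before injury.

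For each member, the genes with the most similar course over the 9 libraries were found by the root mean square (RMS) difference between centred log2 CPM profiles, among 10005 tested genes with at least 10 CPM on average. This is a description of likeness and depends on the library scaling that all genes share. The profiles were not scaled to a common size, so the nearest genes tend by construction to have fold changes like that of the member. Dcn was closest to Cd34 (RMS 0.079), one of the adventitial markers above, and to Man1a (0.087). Bgn was closest to Cacna2d1 (0.076) and B3gnt9 (0.087). The nearest profiles to Fmod, Megf11 (0.202) and Nrcam (0.212), were less alike, and these genes had log2 fold changes of 3.74 and 3.76. Omd was closest to Gstm1 (0.108) and Gm16048 (0.115), and Ogn to Cdon (0.131) and Sema3c (0.143).

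Among the members that were not called, Lum was closest to Deptor (0.110) and Asap3 (0.111), Aspn to 2610021A01Rik (0.113) and Daam1 (0.127), and Podn to Nlgn3 (0.128) and Zfp423 (0.133). Prelp was closest to its antisense neighbour Gm15851 (0.077), whose reads cannot be separated from its own, and then to Vipr2 (0.148). Between members, Dcn and Ogn were most alike (RMS 0.176), followed by Aspn and Lum (0.232) and Lum and Podn (0.243), and Fmod and Omd were least alike (3.10).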

How the data were processed

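Sorted fibroblasts of 4 aged sham and 5 aged bleo mice were grouped by the condition and replicate number in their labels. The authors deposited raw read counts per gene, without normalization, and FPKM values, which they scaled by gene length and by a total that was 2.27 to 2.42 times the summed counts of the library. The submitters' processing notes name bcl2fastq, STAR 2.5.2b, Subread, and featureCounts. Whether counting used strand is not given in the sources used here. Coordinates are those of GRCm38 (78.8% of shared gene identifiers have their GENCODE M21 position). Young mice are outside the samples used.

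Genes with a mean count of at least 25 were tested in edgeR 4.0.16 (R 4.3.3) by glmQLFit and glmQLFTest with TMM factors and no covariate. Log2 CPM used a prior count of 2. SEs were derived from the fold change and its test. The script was tested on simulated data with 200 changed genes. DESeq2 1.42.0, limma 3.58.1, other scalings, filters, and thresholds, left-out libraries, and replicate numbers as a block were alternatives. Counting limits cover counting error only, and same-group libraries had a chi-square of 30.9 to 468 per degree of freedom against each other, so none was a duplicate.

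The members and gene lists were chosen with earlier results of these data known. Named genes are the members, the other family genes, up to 2 called genes with the largest change per direction in each list, the ratio genes, the 2 nearest profiles per member, and the genes flanking each locus. Bmp1, Tlr2, Tlr4, Vcan, Col2a1, Cenpp, and Scp2 were named after their values were seen. Promoters are from RefSeq (GRCm38.p6), where 7 of 9 members matched. Dcn and Lum are named only.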

Additional observations from a re-analysis of the deposited data

Results flagged for a closer look

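Among 38 groups of values examined for a library far from its group, 1 stood out. Ecm2, the family gene next to Aspn on chromosome 13, had 383 CPM in aged sham 4, where the nearest aged sham library had 334 CPM, and this gap was 0.848 of the range of the group. Such a gap is expected by chance in about 5% of groups. All aged bleo libraries were below all aged sham libraries for this gene in any case.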

How the results depend on the processing

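Across 21 alternatives, the calls and directions of Dcn, Fmod, Omd, and Ogn did not change. With each library left out, their log2 fold changes were -1.77 to -1.38, 3.64 to 3.89, -2.48 to -1.93, and -1.87 to -1.40, and that of Bgn was 0.61 to 0.74. Prelp stayed positive in these fits, at 0.25 to 0.52. With only the libraries whose names share an ending (aged sham 1 to 4 and aged bleo 4, the lone injured library being assumed to vary like aged sham), 6177 genes were called, 1 member was higher and 6 lower, and Prelp reversed to -0.529 (edgeR FDR 0.0428). Aspn (-1.18), Lum (-0.91), and Podn (-1.58) were then called and Bgn (0.39) was not. The cause was not tested. With thresholds of 0.05 for the FDR and 2 for the fold change, 2158 genes and 1 higher member were called, and Bgn was not. At these thresholds, 4 receptors and ligands and 1 proteoglycan outside the family were also called. On log2(FPKM + 1), limma called 1785 genes, 1 other family gene, 1 keratan sulfate enzyme, and 1 proteoglycan outside the family. Called proteoglycans outside the family numbered 1 with at least 10 counts in every library and 4 without a filter. Replicate numbers did not pair the libraries (correlations of deviations -0.13 to 0.326, with aged sham 4 the only one closest to its own number). With the replicate block, 3536 genes were called and no member's call changed, while the log2 ratios were 2.18 (Bgn to Dcn), 3.93 (Fmod to Lum), -3.72 (Dcn to Col1a1), and -1.54 (Bgn to Col1a1), each with an exact permutation p of 0.125, the smallest that 4 pairs allow. Each of the 9 members had at least 128 reads in each library.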

Other observations

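Of 6 tested proteoglycans outside the family, 2 rose and none fell, where 23.8% of all tested genes were called. Most of the 6 carry chondroitin sulfate, and the count called was between 1 and 4 under the alternatives. The median log2 fold change was 0.49 against 0.006 for all tested genes. Acan, the large proteoglycan gene of cartilage, rose from 0.190 to 2.61 CPM (log2 fold change 3.78, edgeR FDR 0.000550) and Prg4, the lubricin gene, from 24.6 to 42.1 CPM (0.77, edgeR FDR 0.0320). Vcan, which encodes versican and was the most abundant of them, had 346 ± 64.1 CPM (SD, n = 4) in aged sham and 493 ± 74.9 CPM (SD, n = 5) in aged bleo and stayed under the fold change threshold (0.51, edgeR FDR 0.0327).

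Where 12.3% of all tested genes rose and 11.5% fell, counts of other marker lists were as follows. Of 4 tested chondrocyte markers, 2 rose and 1 fell, and the list summed to 30.5 to 52.0 CPM in aged sham and 19.8 to 34.8 CPM in aged bleo. Col2a1, the defining collagen of cartilage, was under the count minimum at 0.418 and 0.289 CPM. Of 8 smooth muscle and pericyte markers, 1 rose and 3 fell, with sums of 2670 to 5370 CPM in aged sham and 1880 to 3070 CPM in aged bleo. The 5 neutrophil markers had edgeR FDR values of 0.247 to 0.971 and sums of 69.9 to 923 CPM over all libraries, and the 6 mesothelial markers had edgeR FDR values of 0.121 to 0.987 and sums of 33.4 to 138 CPM.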
